A study of Homo sapiens with 4 samples.

Results

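Genes that encode m6A erasers and readers were themselves examined for N6-methyladenosine (m6A), the methylated base that these proteins remove from messenger RNA or bind on it. The 10 genes were FTO, ALKBH5, YTHDF1, YTHDF2, YTHDF3, YTHDC1, YTHDC2, IGF2BP2, IGF2BP3 and HNRNPA2B1. Their intervals were all rows of either deposited list that overlap the gene's window on the gene's strand (hg19), a choice that uses position only. There were 14 such intervals of 11038 in the CSE list and 21 of 13691 in the knockdown list, in 7 of the 10 genes.

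The material was 16-HBE, an established human bronchial epithelial line. Cigarette smoke extract (CSE, 5%, 24 h) was given in each condition, and the knockdown condition also had siRNA against METTL3, which catalyses most m6A formation on mRNA. No condition without smoke extract and no control siRNA is named in the labels, so reduced METTL3 and transfection cannot be told apart. The assay was MeRIP-seq, in which an antibody against m6A pulls methylated pieces of poly(A) RNA down (IP) for sequencing next to total input RNA. Each condition has 1 IP and 1 input sample, 4 samples in all, and 1 list of intervals where IP exceeded input. The design text speaks of 3 replicates, but with 1 list per condition there is no replicate spread, and no difference below could be tested. Read depth was not analysed here, and neither list carries RNA levels.

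m6A is written by a nuclear complex around METTL3, removed by the dioxygenases FTO and ALKBH5, and read by proteins that bind it and set the fate of the RNA. The YTHDF proteins are cytoplasmic readers linked to mRNA decay and translation, YTHDC1 is a nuclear reader linked to splicing and export, YTHDC2 is an RNA helicase, and the IGF2BP proteins stabilise their target mRNAs. HNRNPA2B1 is a nuclear RNA-binding protein that has been described as a reader. In mRNA, m6A is known to be enriched in long internal exons and around stop codons, most often at the letters GGAC, where the A carries the methyl group.

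Every one of the 7 genes that had an interval in one list had one in the other list as well. Intervals of the same gene overlapped between the lists in 13 cases, 11 of them with the same start and the same end. FTO held the only interval found in the CSE list alone, and 8 intervals were found in the knockdown list alone: 4 in IGF2BP2, 2 in YTHDC1 and 1 each in YTHDF1 and YTHDF3. These shares do not set the 10 genes apart. Knockdown-only intervals made up 38.1% of the 21 (Wilson 95% interval 20.8 to 59.1), against 35.5% of the whole knockdown list. CSE-only intervals made up 7.14% of the 14 (1.27 to 31.5), against 19.9% of the whole CSE list. The intervals quoted cover counting error only and treat intervals of one transcript as independent, which they are not.

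**Figure D1:**
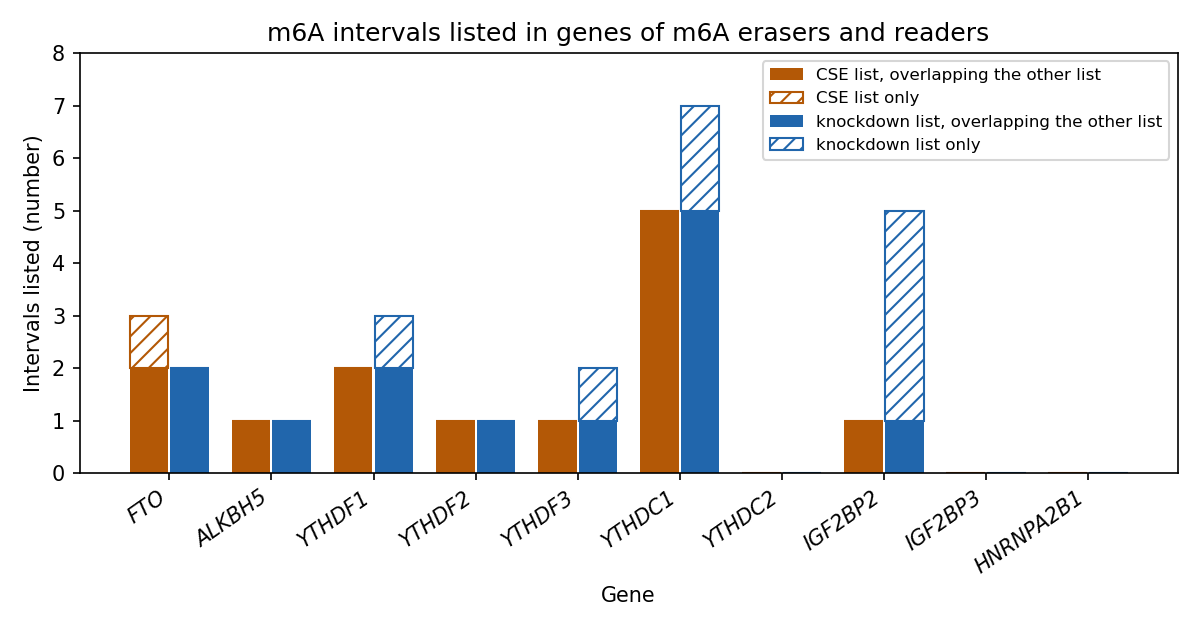
Number of intervals (vertical axis) listed in each of the 10 genes (horizontal axis), for the CSE list and the knockdown list. Filled bars are intervals that overlap the other list by at least 1 bp and hatched bars are intervals of that list alone. IGF2BP2 has 1 interval in CSE and 5 with knockdown, while YTHDC2, IGF2BP3 and HNRNPA2B1 have none.

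The intervals had the borders of exons. The lists themselves name no gene or exon, so widths and spacings were set beside the exons of the same gene in GENCODE release 29, without carrying any position from its build to hg19. Of 24 distinct intervals, 19 had the length of an annotated exon of their own gene within 1 nt, and 18 to the base. For comparison, of 216 combinations of an interval with another of the 10 genes, 36 (16.7%) held an exon of the same length. By interval, 12 of the 24 matched an exon of at least 1 other gene. The most matches were at 81 nt (7 other genes) and 80 nt (6), so length alone says little for narrow intervals. In each of the 7 genes the longest interval equal to the base to exactly 1 exon was then taken as a reference point. Of the other 17 intervals, 12 had both borders, within 1 nt, at the distance from it that the annotation gives for an exon. The other 5 had exactly 1 border there. In YTHDC1 the 531 nt interval shares that border with the reference interval itself, so its match was fixed in advance. In these genes the width of an interval is thus mostly the width of an exon, which limits what it says about where in the exon the methylated base lies. Exon numbers below count from the 5′ end of the annotated transcript with the most matching exons. Where several matched equally the longest was used, and whether these cells express all of its exons was not examined.

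**Figure D2:**
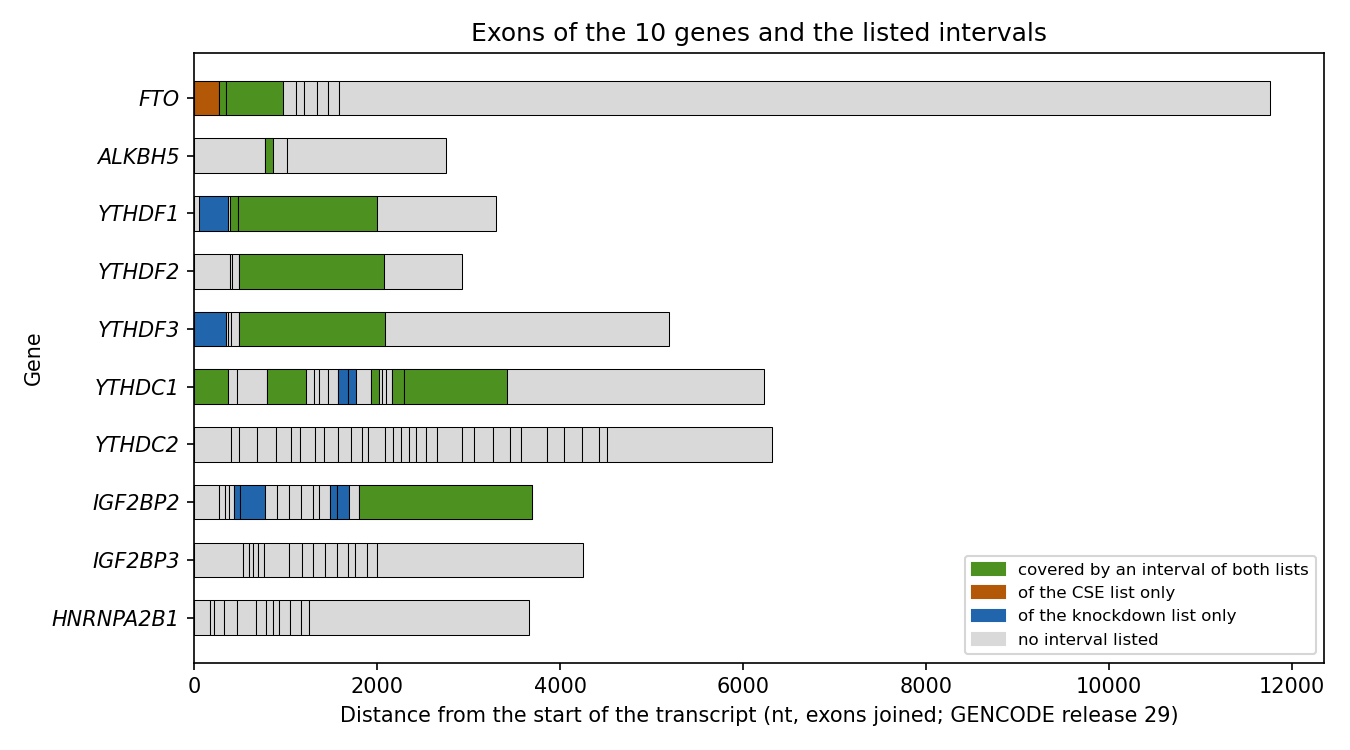
Exons of 1 annotated transcript per gene drawn end to end from the transcript start (horizontal axis, nt), with the part covered by a listed interval coloured by the list or lists that hold it. In YTHDF1, YTHDF2 and YTHDF3 the long internal exon is covered in both lists, and in IGF2BP2 the 4 short covered stretches belong to the knockdown list alone.

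Of the erasers, FTO had 3 intervals in CSE and 2 with knockdown, all in the 5′ part of the gene (chromosome 16, plus strand). Exon 3, a coding exon of 628 nt (chr16:53859776-53860403), was listed in both with a score of 104.4 in CSE and 131.1 with knockdown. Exon 2, 78 nt (chr16:53844052-53844129), was listed in both, with scores of 213.5 and 161.3. The score is the authors' value for each interval, on a scale that is not stated. It ranks intervals within a list, and scores printed side by side are not read as a change. Exon 3 scored above 26.0% of the CSE list and 29.3% of the knockdown list, and exon 2 above 48.4% of the CSE list, so both lay in the lower 50%.

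Exon 1 of FTO, 267 nt (chr16:53737875-53738141), was listed in CSE alone, with a score of 183.6. Its coding part begins at nt 223 and has 45 nt, and the exon as a whole holds 2 GGAC, both in the leader. In the knockdown list the intervals before and after this position, on either strand, had the consecutive running numbers 17591 and 17592. Number 17591 is on the minus strand, 133 nt from exon 1, and is described under the results flagged for a closer look. If those numbers count calls, no unlisted call lies between them. Neither the last exon of FTO, 10180 nt long with 23 GGAC, nor exons 4 to 8 were listed in either condition.

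ALKBH5 (chromosome 17, plus strand) had a single interval, the same in both lists. It was exon 2, 81 nt (chr17:18098269-18098349), with scores of 197.8 in CSE and 272.4 with knockdown, above 46.4% and 49.3% of the intervals in the respective list. The longer exons of this gene, exon 1 of 775 nt with 8 GGAC and the last exon of 1736 nt with 7, were not listed. The coding letters of the short eraser exons are shown because these are the narrowest intervals of both genes, with GGAC in capitals. They are taken from the GENCODE transcripts, strand of the RNA, and were matched to the intervals by length and, in FTO, by spacing. Within 1 nt, this length also occurs among exons of 7 of the other genes, so the match in ALKBH5 rests on length and window.

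FTO exon 1, coding part: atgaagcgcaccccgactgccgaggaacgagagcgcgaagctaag

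FTO exon 2: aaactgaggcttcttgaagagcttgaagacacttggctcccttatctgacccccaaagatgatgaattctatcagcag

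ALKBH5 exon 2: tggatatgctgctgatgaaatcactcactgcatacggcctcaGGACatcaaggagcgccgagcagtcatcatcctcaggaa

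Neither of the FTO stretches holds GGAC, and the ALKBH5 exon holds 1. Among 11272 annotated internal coding exons within 5 nt of the length of FTO exon 2, 29.2% hold GGAC on the RNA strand, and among 11637 near the length of ALKBH5 exon 2, 30.0% do. None of the 3 stretches holds the motif on the opposite strand, where it reads GTCC.

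All 3 YTHDF genes carried an interval over their longest internal exon in both lists, with identical borders and a score of 3100 each time. A score of 3100 or more was held by 5.98% of the CSE list and 8.55% of the knockdown list. The exon measured 1521 nt in YTHDF1 (exon 4, chr20:61833639-61835159, minus strand) and 1584 nt in YTHDF2 (exon 4, chr1:29068915-29070498, plus strand). Both are coding throughout and hold most of the protein. The stop codon follows in the next exon, which carries only 24 further coding nt in YTHDF1 and 21 in YTHDF2 and was not listed. Exons of this size are rare: of 165397 distinct internal coding exons in the annotation, 505 (0.305%) were over 1500 nt. Of the intervals in the lists, 15.4% in CSE and 12.8% with knockdown were over 1500 nt. These shares cover intervals of every kind, such as the one of 1885 nt at the last exon of IGF2BP2. They therefore cannot be set against the share among internal coding exons.

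The wide exons held 11 GGAC in YTHDF1, 10 in YTHDF2 and 10 in YTHDF3, or 7.23, 6.31 and 6.25 per kb. The median count was 6 for the 176 annotated internal coding exons of 1400 to 1700 nt. On the opposite strand the motif occurred 8 times in YTHDF1 and 6 times in YTHDF2. For YTHDF1 and YTHDF2 the first stretch of 100 nt that holds as many GGAC as any in the exon is shown, as an example of motif-bearing letters in these high-scoring exons.

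YTHDF1 exon 4, nt 40 to 139: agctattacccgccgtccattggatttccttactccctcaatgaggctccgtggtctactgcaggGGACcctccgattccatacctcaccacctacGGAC

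YTHDF2 exon 4, nt 1236 to 1335: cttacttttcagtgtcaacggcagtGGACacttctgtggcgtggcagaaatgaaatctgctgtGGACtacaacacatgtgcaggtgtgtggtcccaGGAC

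The YTHDF1 stretch holds 2 of the exon's 11 GGAC, and 175 stretches starting between nt 40 and nt 1236 hold as many, so no single place stands out. The YTHDF2 stretch holds 3 of 10, as many as 45 overlapping stretches that start between nt 1236 and nt 1299. The exons of the 3 genes were 69.1% to 70.7% identical over aligned letters. Their longest run of identical letters was 20 nt for YTHDF1 with YTHDF2, and 17 nt for each of them with YTHDF3. How reads that match several paralogs were treated is not stated in the labels.

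Outside the wide exon, YTHDF1 had exon 3, 80 nt (chr20:61845216-61845295), in both lists. Its score was 215.8 in CSE, above 48.8% of that list, and 53.4 with knockdown, near the lowest listed score of 50.02 and above 2.15% of that list. Among the 11 intervals with identical borders, the score was the higher number in CSE in this case and in FTO exon 2. It was the higher number with knockdown in 4 cases. The other 5 were tied at 3100 in both lists, where scores pile up and cannot be compared. Exon 1 of YTHDF1 was listed with knockdown alone, as an interval of 321 nt (chr20:61847218-61847538) with a score of 187.1 that shares its 3′ border with the annotated exon. Between the flanking CSE intervals 1 running number was unlisted. YTHDF2 had no other interval in either list. The letters of YTHDF1 exon 3 are shown because it is the shared interval closest to the lowest listed score.

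YTHDF1 exon 3: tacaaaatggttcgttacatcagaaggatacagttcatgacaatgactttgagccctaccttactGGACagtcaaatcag

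The exon holds 1 GGAC, which 29.4% of annotated internal coding exons near its length do.

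YTHDF3 resembled YTHDF1 in a wide exon listed in both conditions and an exon 1 listed with knockdown alone. The wide interval of 1598 nt (exon 5, chr8:64098706-64100303, plus strand) scored 3100 in both lists and was 1 nt shorter than the annotated exon. In the transcript used, 1581 of that exon's 1599 nt are coding, from nt 19. It is therefore not among the wholly coding exons counted below. Exon 1, 349 nt (chr8:64081112-64081460), was listed with knockdown alone. Its score of 1234.1 was the highest among the 8 knockdown-only intervals and lay above 80.9% of the knockdown list. The other 7 scored from 56.4 to 460.6. In the CSE list 3 running numbers were unlisted between the intervals on either side, so an unlisted CSE call at this exon cannot be told apart from none.

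Of 4 distinct intervals that end at the 3′ border of an exon 1, that of FTO was listed in CSE alone, those of YTHDF1 and YTHDF3 with knockdown alone, and that of YTHDC1 in both. The share listed in one condition alone was not computed for first exons at large, so these 4 are a description of these genes.

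**Figure D3:**
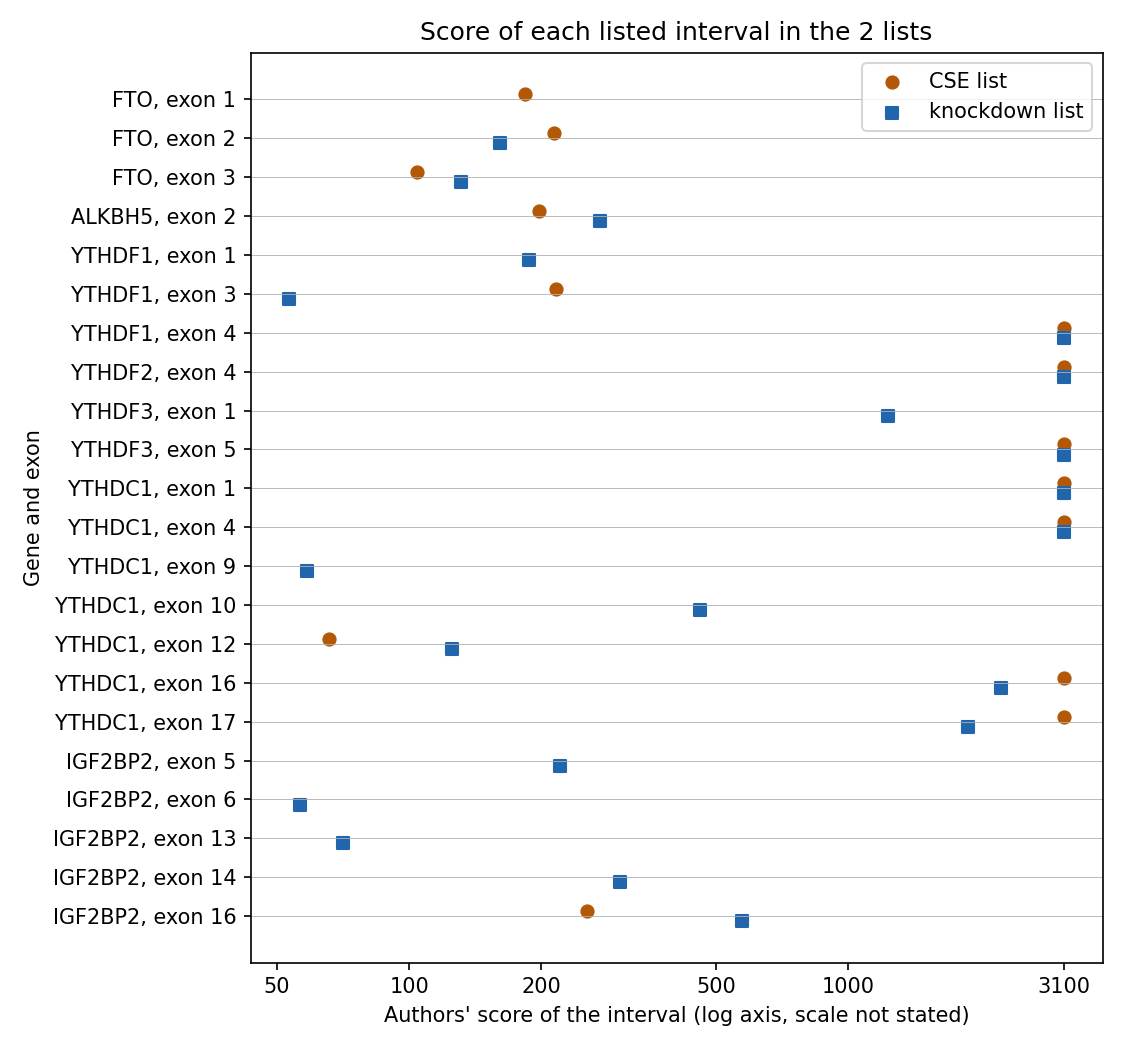
Score of each interval (horizontal axis, log scale) by gene and exon (vertical axis), with circles for the CSE list and squares for the knockdown list. The wide YTHDF exons and exons 1 and 4 of YTHDC1 sit at 3100 in both lists, while intervals of up to 100 nt lie between 53.4 and 460.6.

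YTHDC1, the nuclear reader, had the most intervals of the 10 genes, 5 in CSE and 7 with knockdown (chromosome 4, minus strand). Exon 4, 424 nt and wholly coding (chr4:69202745-69203168), and the interval of 381 nt at exon 1 (chr4:69215444-69215824) scored 3100 in both lists with identical borders. Exon 12, 83 nt (chr4:69185841-69185923), was also in both, scoring 65.5 in CSE and 125.5 with knockdown. In total 4 of the 5 CSE intervals of this gene scored 3100.

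The pair of intervals at the 3′ end of YTHDC1 overlapped between the lists but had other borders. At the last exon, exon 17, the CSE interval had 1121 nt (chr4:69178921-69180041) and a score of 3100. The knockdown interval had 1111 nt (chr4:69178931-69180041) and scored 1876.7. At exon 16 the CSE interval had 531 nt (chr4:69181636-69182166) and a score of 3100, and the knockdown interval 594 nt (chr4:69181573-69182166) and a score of 2226.9. In each case the 5′ border, where the exon begins, was the same in both lists and the 3′ border differed, by 10 nt at exon 17 and by 63 nt at exon 16. Exon 16 of the main transcript has 135 nt. The 594 nt interval equals the last exon of a partial annotated transcript, which reads on past the end of exon 16. The 531 nt interval equals no annotated exon. These are the 2 shared intervals of the 10 genes whose borders were not identical. Identical borders were held by 11 of the 13 overlapping CSE intervals of these genes (84.6%) and by 7258 of the 8838 in the whole CSE list (82.1%), so shifted borders were about as frequent here as elsewhere.

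Exons 9 and 10 of YTHDC1, neighbours in the coding sequence, were listed with knockdown alone. Exon 10, 85 nt (chr4:69189857-69189941), scored 460.6, above 62.4% of the knockdown list. Exon 9, 118 nt (chr4:69195720-69195837), scored 58.6, above 4.88% of it. Both positions lie between CSE intervals with the running numbers 34735 and 34738, which leaves 2 numbers unlisted there. From its first to its last interval in this gene the CSE list skipped 3 numbers and the knockdown list 5, so calls that were not listed may lie in this gene in both conditions. The letters of both are shown because they are the YTHDC1 exons listed with knockdown alone.

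YTHDC1 exon 10: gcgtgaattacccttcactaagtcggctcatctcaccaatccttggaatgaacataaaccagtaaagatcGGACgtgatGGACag

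YTHDC1 exon 9: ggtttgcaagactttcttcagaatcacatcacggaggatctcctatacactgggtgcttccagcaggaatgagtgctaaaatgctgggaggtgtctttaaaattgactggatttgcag

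Exon 10 holds 2 GGAC close to its 3′ end, and exon 9 holds none. GGAC occurs in 31.3% of annotated internal coding exons near the length of exon 10 and in 41.7% of those near the length of exon 9. Neither exon holds GTCC. Exon 4, with a score of 3100 in both lists, has no GGAC in its 424 nt, although it holds 6 GAC and 4 AAC, the shorter letters shared by the wider family of m6A contexts.

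IGF2BP2 (chromosome 3, minus strand) showed the largest difference in number, with 1 interval in CSE and 5 with knockdown. The shared one was the last exon, exon 16, of 1885 nt (chr3:185361527-185363411), the widest interval of the 10 genes. It scored 254.7 in CSE, above 53.7% of that list, and 573.3 with knockdown, above 67.4%. Only its first 90 nt are coding, so it carries the stop codon and the trailer.

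The other 4 IGF2BP2 intervals, all listed with knockdown alone, lay at exons that are coding in the transcript used. Exon 14, 132 nt (chr3:185367191-185367322), scored 301.5. The interval at exon 5, 82 nt (chr3:185410487-185410568), scored 220.5 and equals a longer form of that exon in another annotated transcript. Whether the added letters of that form are coding was not examined. Exon 13, 75 nt (chr3:185369882-185369956), scored 70.6, and exon 6, 273 nt (chr3:185407143-185407415), scored 56.4. They form 2 neighbouring pairs, exons 5 and 6 and exons 13 and 14, with exons 7 to 12 between them unlisted. In the CSE list 24 running numbers were unlisted between the last exon of IGF2BP2 and the next listed interval, so a CSE call removed from the list cannot be told apart from none. The knockdown list skipped 5 numbers inside the gene. Letters are given for the 3 exons whose interval equals the main transcript's exon.

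IGF2BP2 exon 6: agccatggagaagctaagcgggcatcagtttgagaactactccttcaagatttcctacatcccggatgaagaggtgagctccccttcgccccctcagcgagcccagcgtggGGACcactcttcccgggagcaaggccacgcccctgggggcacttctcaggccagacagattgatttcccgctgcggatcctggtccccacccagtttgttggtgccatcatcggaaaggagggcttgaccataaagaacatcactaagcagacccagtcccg

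IGF2BP2 exon 13: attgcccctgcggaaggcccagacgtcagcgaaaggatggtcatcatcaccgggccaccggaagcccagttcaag

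IGF2BP2 exon 14: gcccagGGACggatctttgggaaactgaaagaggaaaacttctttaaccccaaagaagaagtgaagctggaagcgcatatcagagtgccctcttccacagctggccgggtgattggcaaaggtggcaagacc

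Exons 6 and 14 hold 1 GGAC each and exon 13 none. The motif occurs in 73.3% of 801 annotated internal coding exons near the length of exon 6, in 46.6% of those near exon 14 and in 28.4% of those near exon 13. On the opposite strand exon 6 holds 2 and the others none.

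The remaining readers had no interval in either list. For YTHDC2 (chromosome 5, plus strand) the nearest listed interval on its strand lay 620210 nt from the window in both lists. For IGF2BP3 (chromosome 7, minus strand) it lay 362135 nt away in CSE and 348967 nt with knockdown, and for HNRNPA2B1 (chromosome 7, minus strand) 661982 and 652404 nt. Running numbers were unlisted around all 3 windows, 19 in CSE and 6 with knockdown for YTHDC2, 20 and 8 for IGF2BP3, and 25 and 26 for HNRNPA2B1. Since the lists give 22.1% and 28.0% of their numbers, and no RNA levels, an unlisted gene cannot be told apart from one that is unmethylated, little expressed or removed from the list. IGF2BP3, a close relative of IGF2BP2, has 15 exons and a last exon of 2252 nt, and YTHDC2 has 30 exons with a longest internal exon of 293 nt. HNRNPA2B1 has 12 exons, the longest internal one of 211 nt.

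Set against the lists they came from, the intervals of these genes had higher median widths, with 95% intervals that include the median of the list. Their scores of 3100 came from 4 genes. The median width was 477.5 nt in CSE (order-statistic 95% interval 81 to 1584), beside 285 nt for the whole list. With knockdown it was 321 nt (83 to 628), beside 218 nt. A score of 3100 or more was held by 7 of the 14 CSE intervals (Wilson 95% interval 26.8% to 73.2%), beside 5.98% of the list, and by 5 of the 21 knockdown intervals, or 23.8% (10.6 to 45.1), beside 8.55%. All of these belonged to YTHDC1, with 4 in CSE and 2 with knockdown, and to the wide exons of the 3 YTHDF genes. Without YTHDC1 the counts were 3 of 9 in CSE, or 33.3% (12.1 to 64.6), and 3 of 14 with knockdown, or 21.4% (7.57 to 47.6), and the latter interval includes the 8.55% of the list. The difference of 2 between the lists came from exons 16 and 17 of YTHDC1, where scores were 2226.9 and 1876.7 with knockdown. The covered length was 10262 nt in CSE, of 8021973 nt in the whole list, and 11483 nt with knockdown, of 8748996 nt. Narrow intervals of up to 100 nt numbered 4 in CSE, with scores from 65.5 to 215.8. With knockdown they numbered 7, with scores from 53.4 to 460.6. Such narrow intervals were not counted over the whole lists, so these numbers are not read as a trait of the 10 genes.

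Exons with an interval were set beside the other exons of the same genes. Lengths and motif counts are those of the exon in the transcript used, also where the interval differs from it. YTHDC1 exon 16 thus counts with 135 nt, although its intervals had 531 and 594 nt. IGF2BP2 exon 5 counts with 64 nt, although its interval had 82 nt. The 22 listed exons had a median length of 270 nt and the 40 unlisted exons of the 7 genes one of 115.5 nt. Among wholly coding exons the medians were closer, 118 nt listed and 102 nt unlisted. Without the exons over 1500 nt, those of YTHDF1 and YTHDF2, the order of the medians turned, with 85 nt for the listed ones. The order of the longest did not, with 628 nt listed and 329 nt unlisted. These 13 listed exons held 2256 nt in all and the 29 unlisted ones 2970 nt. Among exons of any kind, the longest of FTO (10180 nt), YTHDF3 (3103 nt) and ALKBH5 (1736 nt) were unlisted. Over wholly coding exons, GGAC occurred 5.97 times per kb in the 15 listed and 4.04 times per kb in the 29 unlisted ones, the latter holding 12 in all. Leaving out the exons over 1500 nt, the listed ones had 4.88 per kb, from 11 occurrences in 13 exons. The 49 wholly coding exons of YTHDC2, IGF2BP3 and HNRNPA2B1 had 3.08 per kb, and all annotated internal coding exons 4.76. The exons share genes and transcripts, so these are descriptions with no test, and a motif match says nothing of whether the site is methylated.

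**Figure D4:**
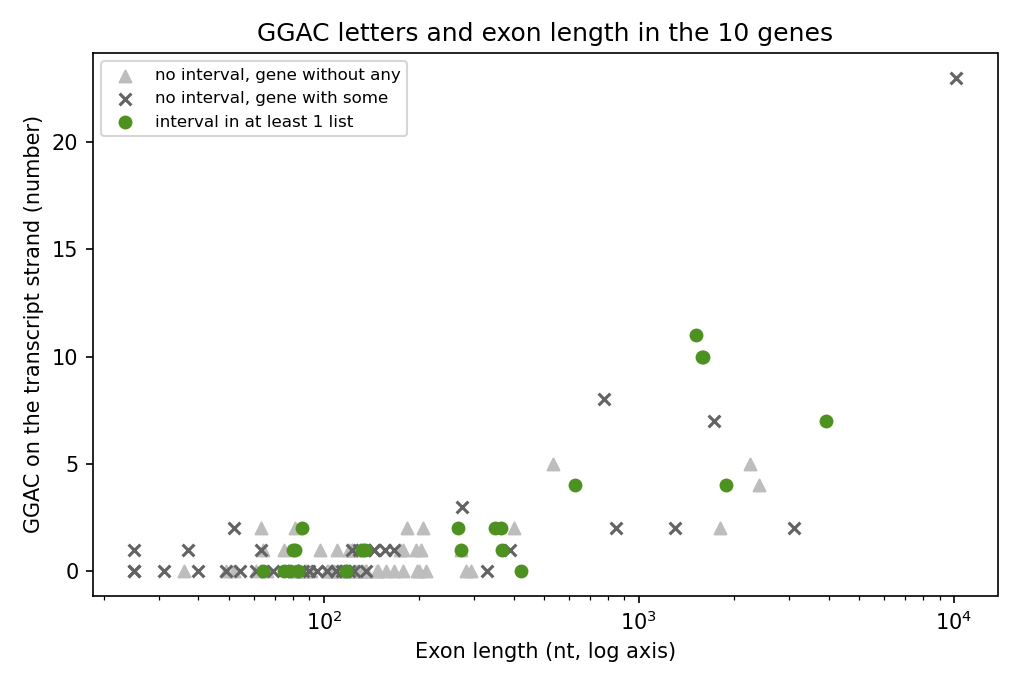
Number of GGAC on the RNA strand (vertical axis) against exon length in nt (horizontal axis, log scale) for the exons of the 10 genes, with circles for exons that have an interval in at least 1 list, crosses for other exons of those genes and triangles for exons of genes with no interval. The group of circles near 1500 nt with 10 or 11 GGAC are the wide YTHDF exons, and the cross at the far right is the unlisted last exon of FTO with 23.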

How the data were processed

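The submitters' processing notes name HISAT2 2.0.4 as aligner and hg19 as build. Interval names begin with MACS. Neither the labels nor the lists state the caller's settings or how replicates were handled. The deposited score is the authors' value per interval. Starts were counted from 1. Rows overlapping a gene's window on its strand were taken. An interval overlapped the other list if at least 1 bp was shared on the same strand. The overlap functions were tested on simulated data. Exon lengths, spacing and letters came from GENCODE release 29 (GRCh38). No coordinate of that build is printed, and genes without a window, such as the METTL3 complex, were not placed. Python 3.11.15, pandas 2.3.3, scipy 1.17.1 and Biopython 1.88 were used. All 10 genes are named by rule, with every interval. The genes and lists were chosen with earlier results of these data known. Alternatives were rows whole inside a window, windows widened by 5 kb, either strand, the upper 50% of each list by score, leaving out the gene with the most intervals, and stricter overlap.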

Additional observations from a re-analysis of the deposited data

Results flagged for a closer look

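On the minus strand of the FTO window, outside the strand used above, the knockdown list held 1 interval of 276 nt (chr16:53737467-53737742) with a score of 402.21, above 59.2% of that list. It drew attention because it lies 133 nt from the FTO exon 1 interval, which was listed in CSE alone, and is itself absent from the CSE list. Its width equals an exon of RPGRIP1L, a cilium gene that starts beside FTO on the opposite strand. Its distance to FTO exon 3, 122034 nt, is the distance of that RPGRIP1L exon in the annotation. RPGRIP1L was named after its value was seen. In the knockdown list its number was 17591 and FTO exon 2 had 17592. In CSE the FTO exon 1 interval had 17936, directly after 17935. Each list thus holds 1 number at this shared start, on the plus strand in CSE and on the minus strand with knockdown. Whether they report one call placed on different genes was not tested.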

How the results depend on the processing

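Of 55 values under alternatives, 49 stayed within 1.5 times the reported count or length or within the 95% interval of the share or median, and 6 moved. When only the upper 50% of scores was used, the 10 genes kept 8 CSE and 11 knockdown intervals, by construction fewer, and 100% of the CSE ones overlapped the other list. Scores of 3100 or more then made up 87.5% in CSE and 45.5% with knockdown, a rise fixed in advance because the selection removes no such score. The same shares over the halved lists were not computed. Without YTHDC1, which held the most intervals, 9 CSE intervals were left. With identical start and end as the overlap, shares were 78.6% in CSE and 52.4% with knockdown. In the whole lists 7258 of 11038 CSE intervals and 7258 of 13691 knockdown intervals had identical borders. The match of exon lengths to the base (18 of 24) and all alternatives for the share of scores at 3100 were added after seeing the data. With 14 and 21 intervals, shares are known only within wide limits, and depth was not used here.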
